A study of Mus musculus with 16 samples.

Results

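*Wipi1*, *Tbc1d13*, *Crat*, *Nr1h5*, *Exd1*, *Tubb2a*, *Syt11*, *A630089N07Rik* and *Cacfd1* were examined over the litters from which 16 whole E9.5 mouse embryos came. They are 9 of the 26411 genes counted and were picked by symbol because earlier analysis of the same embryos showed levels that went with litter rather than with genotype. The levels by litter and by genotype are therefore what chose them and are described here without a test. All 9 were among the 15679 genes with enough counts to be tested.

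Each of 4 genotypes had 4 embryos. They were *Kat6a*+/+*Kat6b*+/+, called wild type here, the *Kat6a* null *Kat6a*-/-*Kat6b*+/+, the transgenic *Kat6a*+/+*Tg(Kat6b)*, and the null with the transgene, *Kat6a*-/-*Tg(Kat6b)*. KAT6A and KAT6B are related histone acetyltransferases, and RNA was sequenced to ask whether additional *Kat6b* could make up for the loss of *Kat6a*. *Kat6a*-/- embryos carry a null allele that lacks several exons, *Tg(Kat6b)* is a bacterial artificial chromosome with the whole *Kat6b* gene and its flanking sequence, present in several copies and derived from a germline founder, and the mice were kept on a hybrid *FVB* x *BALB/c* background. Each embryo is a separate animal, and the strain from which an embryo inherited any one locus is not given in the labels. Litter 801 gave 1 wild-type and 2 *Kat6a*-/-*Kat6b*+/+ embryos, litter 803 gave 1 and 2, litter 2597 gave 1 wild-type and 3 *Kat6a*+/+*Tg(Kat6b)* embryos, and litter 2598 gave 1 and 1. Litters 483 (3 embryos) and 498 (1 embryo) gave *Kat6a*-/-*Tg(Kat6b)* embryos alone, so that for this genotype litter and genotype cannot be told apart. Wild-type embryos are the link between litters: those of 801 and 803 were both male and those of 2597 and 2598 both female, so that among wild-type embryos sex and litter also cannot be told apart.

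The 9 genes belong to no common pathway. *Wipi1* encodes a WD-repeat protein that binds phosphatidylinositol 3-phosphate on the forming autophagosome, *Tbc1d13* a GTPase-activating protein for the endosomal GTPase Rab35, and *Crat* the carnitine acetyltransferase that moves acetyl groups between coenzyme A and carnitine. *Nr1h5* encodes the nuclear receptor FXR-beta, a relative of the bile acid receptor. *Exd1* encodes an exonuclease-domain protein of the piRNA pathway of germ cells, *Tubb2a* a beta-tubulin abundant in neurons, *Syt11* a synaptotagmin of vesicle traffic that does not bind calcium, and *Cacfd1* a membrane protein with a flower domain. The level of a gene can differ between litters of a mixed background without any role in the trait under study, and such a difference enters a genotype comparison wherever genotypes are unevenly spread over litters.

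In GRCm39, *Cacfd1* lies on chromosome 2 (chr2:26899938-26911107, plus strand), followed by *Tbc1d13* (chr2:30023734-30042025, plus strand) and *Crat* (chr2:30289300-30306340, minus strand), whose start is 0.282 Mb from that of *Tbc1d13*. *Exd1* is on the same chromosome (chr2:119346986-119378108, minus strand), 89.1 Mb from *Crat*. *Syt11* (chr3:88632134-88682471, minus strand) and *Nr1h5* (chr3:102846830-102871449, minus strand) lie 14.2 Mb apart. *Wipi1* (chr11:109464156-109502793), *Tubb2a* (chr13:34257549-34261998) and *A630089N07Rik* (chr16:97802510-97883698) are each on a chromosome of their own, all on the minus strand. The library kit did not mark strand, so reads of overlapping genes on opposite strands cannot be told apart. Such overlap covers 89.2% of the exon bases of *Tubb2a* (with *Bphl*), 24.4% of *Crat* (with *Dolpp1*, *Gm16323* and *Ptpa*), 12.5% of *Syt11* (with *Gm66963* and *Rit1*), 7.45% of *Exd1* (with *Chp1*) and 1.33% of *Wipi1* (with *Arsg*), and none of the other 4 genes. *Tubb2a* also has near-identical copies in *Tubb2b* and *Tubb2a-ps2*, so its counts are uncertain.

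The 250 bases upstream of the start of 1 annotated transcript, the canonical one, are shown for *Wipi1*, *Nr1h5*, *Tbc1d13* and *Crat*, the 4 genes with the largest differences between litters, chosen after their values were seen. They are read from the GRCm39 reference on the strand of the gene, and the reference is C57BL/6J, not the strains of these embryos. Other transcripts start further upstream in *Wipi1*, *Crat* and *Tbc1d13*, so these windows lie within or reach into the annotated gene. Capitals mark matches to GGGCGG (or CCGCCC on the other strand) and to CACGTG.
Wipi1, chr11:109502278-109502527, minus strand: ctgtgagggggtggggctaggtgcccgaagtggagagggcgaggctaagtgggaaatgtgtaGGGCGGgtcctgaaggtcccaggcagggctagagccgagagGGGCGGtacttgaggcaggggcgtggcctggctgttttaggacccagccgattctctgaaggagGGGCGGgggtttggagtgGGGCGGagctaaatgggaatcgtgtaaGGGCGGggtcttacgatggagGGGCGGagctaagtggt
Nr1h5, chr3:102871450-102871699, minus strand: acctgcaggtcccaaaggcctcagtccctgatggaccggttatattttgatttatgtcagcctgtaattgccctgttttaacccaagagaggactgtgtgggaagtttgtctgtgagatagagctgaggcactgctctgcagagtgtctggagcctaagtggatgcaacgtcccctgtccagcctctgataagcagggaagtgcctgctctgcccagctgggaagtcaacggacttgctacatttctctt
Tbc1d13, chr2:30023508-30023757, plus strand: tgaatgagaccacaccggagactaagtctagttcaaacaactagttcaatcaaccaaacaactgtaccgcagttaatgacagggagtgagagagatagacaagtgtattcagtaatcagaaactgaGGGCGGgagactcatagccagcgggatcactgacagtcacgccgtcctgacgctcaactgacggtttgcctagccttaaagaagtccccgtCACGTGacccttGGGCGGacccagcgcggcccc
Crat, chr2:30306034-30306283, minus strand: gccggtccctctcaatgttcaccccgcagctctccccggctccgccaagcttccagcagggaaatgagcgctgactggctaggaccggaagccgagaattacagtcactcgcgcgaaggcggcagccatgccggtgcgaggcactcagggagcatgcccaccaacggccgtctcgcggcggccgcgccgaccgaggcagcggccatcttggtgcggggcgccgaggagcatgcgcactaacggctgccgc
The *Wipi1* window holds GGGCGG 6 times and the *Tbc1d13* window 2 times, beside 1 CACGTG. None of the 4 windows holds TATAAA or CCAAT, and those of *Nr1h5* and *Crat* hold none of the motifs searched, on either strand. Of 32851 RefSeq promoter windows of the same length (GRCm38.p6), 32.7% hold GGGCGG, 6.02% CACGTG, 33.8% CCAAT and 12.4% TATAAA. Each is the first 250 bases of a promoter record, so its distance from the start may differ from that of the windows shown. The windows contain 13 CG dinucleotides in *Wipi1* and *Tbc1d13*, 29 in *Crat* and 3 in *Nr1h5*, against a median of 6. These matches describe the reference letters only.

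Each library held between 14407277 and 45665680 counts, with scaling factors of 0.985 to 1.02. *Kat6b* was at 42.6 to 51.0 CPM (counts scaled to the same library total, TMM-normalized) in the 8 embryos without the transgene and at 155 to 227 CPM in the 8 with it, as their labels state, whereas whole-gene *Kat6a* counts (138 to 218 CPM) do not show the null allele. Markers of heart muscle and primitive erythroid cells were present in every embryo and both decidua markers were at or near 0 (summed level at most 0.0686 CPM), as were the 4 trophoblast markers (at most 1.28 CPM), while 10 markers of visceral endoderm and liver bud summed to 8.91 to 65.9 CPM. One library, *Kat6a*+/+*Tg(Kat6b)* replicate 1 of litter 2597, stood apart in its long genes, with a median log2 difference of −0.27 over 583 of them from the other 3 embryos of its genotype (−0.10 to 0.12 in the other libraries). In whole embryos, fewer cells of a type and less RNA per cell cannot be told apart.

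*Wipi1* fell into 3 levels. The wild-type embryos were at 8.62 CPM in litter 801 and 8.28 in 803, but at 18.8 in 2597 and 18.9 in 2598. The *Kat6a*-/-*Kat6b*+/+ embryos were at 8.24 and 6.70 CPM in litter 801 and at 8.33 and 8.48 in 803, and the *Kat6a*+/+*Tg(Kat6b)* embryos at 17.3, 16.8 and 17.6 in 2597 and 18.4 in 2598. Each embryo thus sat with its litter mates, whichever genotype they had, and the litter pairs did not overlap. The mean was 8.11 ± 0.705 CPM (SD, n = 6) in litters 801 and 803 and 18.0 ± 0.860 (n = 6) in 2597 and 2598, a ratio of 2.22, and the ratio was 2.24 between the wild-type embryos alone. Litter means ordered as 801 (7.85) and 803 (8.37), then 2597 (17.7) and 2598 (18.7), and within each pair the embryos of both litters overlapped.

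In the *Kat6a*-/-*Tg(Kat6b)* embryos *Wipi1* was close to absent, with 0, 3 and 3 counts in litter 483 and 5 in 498, or 0, 0.133, 0.185 and 0.110 CPM. The 6 embryos of litters 801 and 803 held 1196 counts together against 11 here, a ratio of 83.9 after scaling (95% interval 46.7 to 169), and those of 2597 and 2598 held 2361, a ratio of 188 (105 to 378). These intervals cover counting error only. Neither loss of *Kat6a* in litters 801 and 803 nor the transgene in litters 2597 and 2598 went with a level near 0, and no wild-type embryo of litter 483 or 498 was sequenced. Genotype and litter therefore cannot be told apart for this value.

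*Nr1h5* separated the litters most strongly in the other direction. The embryos of litter 801 were at 38.5 CPM (wild type), 29.7 and 37.8 (*Kat6a*-/-*Kat6b*+/+), and those of 803 at 44.1 (wild type), 45.1 and 39.6. In litter 2597 the wild-type embryo was at 1.83 CPM and the *Kat6a*+/+*Tg(Kat6b)* embryos at 2.35, 2.30 and 0.371, and in 2598 the values were 1.92 and 1.27. The *Kat6a*-/-*Tg(Kat6b)* embryos were at 36.1, 40.4 and 46.9 CPM in litter 483 and 35.7 in 498, of which 3 lay within the range of 801 and 803 and 1 above it. The gene was thus low in both genotypes of 2597 and 2598 and high in all other embryos, with and without the transgene. The means were 39.1 ± 5.52 CPM (SD, n = 6) in 801 and 803, 1.67 ± 0.749 (n = 6) in 2597 and 2598 and 39.8 ± 5.18 (n = 4) in 483 and 498, a ratio of 23.4 between the first and the second. *Sycp1*, a meiotic synaptonemal complex gene whose start is 28.0 kb away, did not share this pattern. It was at 3.75 to 5.53 CPM in the wild-type embryos of both litter pairs and at 0.733 to 2.37 in *Kat6a*-/-*Kat6b*+/+ embryos. In *Kat6a*+/+*Tg(Kat6b)* embryos it was at 1.2 to 3.01 CPM and in *Kat6a*-/-*Tg(Kat6b)* embryos at 0.678 to 1.33.

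*Tbc1d13* and *Crat*, whose starts are 0.282 Mb apart on chromosome 2 with other tested genes between them, moved together. *Tbc1d13* was at 98.8 CPM (wild type), 103 and 102 in litter 801, at 99.6 (wild type), 77.9 and 79.4 in 803, at 54.6 (wild type), 58.0, 54.1 and 54.6 in 2597 and at 54.2 (wild type) and 52.5 in 2598. In the *Kat6a*-/-*Tg(Kat6b)* embryos it was at 75.3, 94.3 and 76.5 CPM in 483 and 99.5 in 498. The 6 embryos of 2597 and 2598 were the lowest of the 16, and both *Kat6a*-/-*Kat6b*+/+ embryos of 803 lay below their wild-type litter mate, which was not so in 801. The mean fell from 93.4 ± 11.5 CPM (n = 6) to 54.7 ± 1.80 (n = 6) between the pairs, a ratio of 1.71, and from 99.2 to 54.4 CPM among wild-type embryos.

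*Crat* was at 39.5 CPM (wild type), 35.4 and 38.9 in litter 801, 34.4 (wild type), 33.2 and 30.4 in 803, 23.9 (wild type), 21.1, 24.1 and 23.3 in 2597, and 22.8 (wild type) and 24.1 in 2598. It was at 34.1, 32.3 and 29.3 CPM in 483 and 34.7 in 498, again with 801 and 803. Again the 6 embryos of 2597 and 2598 were the lowest, at a mean of 23.2 ± 1.16 CPM against 35.3 ± 3.45 in 801 and 803 (n = 6 each), a ratio of 1.52. Over the 16 embryos the log2 levels of *Tbc1d13* and *Crat* had a Pearson correlation of 0.94, and those of *Tbc1d13* and *Nr1h5*, on different chromosomes, one of 0.89. Embryos of 1 litter share their parents, so these are descriptions over 6 litters rather than 16 independent points.

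*Cacfd1* and *Syt11* differed less. *Cacfd1* was at 53.4 CPM (wild type), 54.5 and 52.2 in litter 801 and at 56.8 (wild type), 57.6 and 58.5 in 803, and at 67.2 (wild type), 70.6, 71.5 and 71.4 in 2597 and 68.2 (wild type) and 64.4 in 2598. The *Kat6a*-/-*Tg(Kat6b)* embryos were at 63.1, 55.3 and 61.8 CPM in 483 and 58.1 in 498, so that 2 of them lay among the values of 801 and 803 and 2 between the pairs. The pairs did not overlap, although their means, 55.5 ± 2.52 and 68.9 ± 2.79 CPM (n = 6 each), differed by a ratio of only 1.24. Wild-type embryos alone gave 55.1 and 67.7 CPM.

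*Syt11* was at 66.1 CPM (wild type), 64.9 and 68.4 in litter 801, 60.6 (wild type), 74.6 and 74.5 in 803, 83.8 (wild type), 76.8, 83.2 and 102 in 2597, 85.9 (wild type) and 82.5 in 2598, 67.2, 58.4 and 71.1 in 483 and 60.4 in 498. The lowest embryo of 2597 and 2598, *Kat6a*+/+*Tg(Kat6b)* replicate 1, was only just above the highest of 801 and 803, and it is the library that stood apart in its long genes. The means were 68.2 ± 5.56 and 85.6 ± 8.39 CPM (n = 6 each), a ratio of 1.26.

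For *Exd1*, *A630089N07Rik* and *Tubb2a* the embryos of the litter pairs overlapped, so that their levels did not follow litter in the sense of the other 6 genes. *Exd1* was low in the wild-type embryos of 801 and 803 (1.74 and 1.71 CPM) and higher in those of 2597 and 2598 (3.44 and 4.60), but the *Kat6a*-/-*Kat6b*+/+ litter mates (2.82 and 2.79 in 801, 3.43 and 3.24 in 803) lay above the former, and the *Kat6a*+/+*Tg(Kat6b)* embryos (4.21, 3.84 and 4.16 in 2597, 2.93 in 2598) on both sides of the latter. The wild-type ratio of 2.33 was thus larger than the ratio of 1.47 over all 6 embryos of each pair. In litters 483 and 498 the values were 3.56, 2.62, 2.71 and 2.77 CPM.

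*A630089N07Rik* was at 5.31 CPM in wild type, 5.03 and 5.06 in litter 801, at 4.14 (wild type), 6.50 and 5.16 in 803, at 10.6 (wild type), 6.03, 5.76 and 6.35 in 2597, at 8.31 (wild type) and 7.20 in 2598, at 6.39, 6.04 and 8.75 in 483 and at 6.33 in 498. Its wild-type embryos differed by a ratio of 2.00 between the pairs (4.73 ± 0.826 and 9.44 ± 1.61 CPM, n = 2 each), whereas the other genotypes of the same litters, at 5.44 ± 0.711 and 6.34 ± 0.628 CPM (n = 4 each), lay close to each other. The 2 highest values of the first 4 litters were those of the wild-type females of 2597 and 2598.

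*Tubb2a* was at 112 CPM (wild type), 111 and 120 in litter 801, 107 (wild type), 136 and 145 in 803, 133 (wild type), 139, 123 and 145 in 2597, 140 (wild type) and 135 in 2598, 119, 87.7 and 110 in 483 and 91.0 in 498. The ranges of the first 4 litters overlapped, and the lowest values were those of the females of 483 and 498. Its ratio between the pairs, 1.11, was the smallest of the 9 genes.

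**Figure D1:**
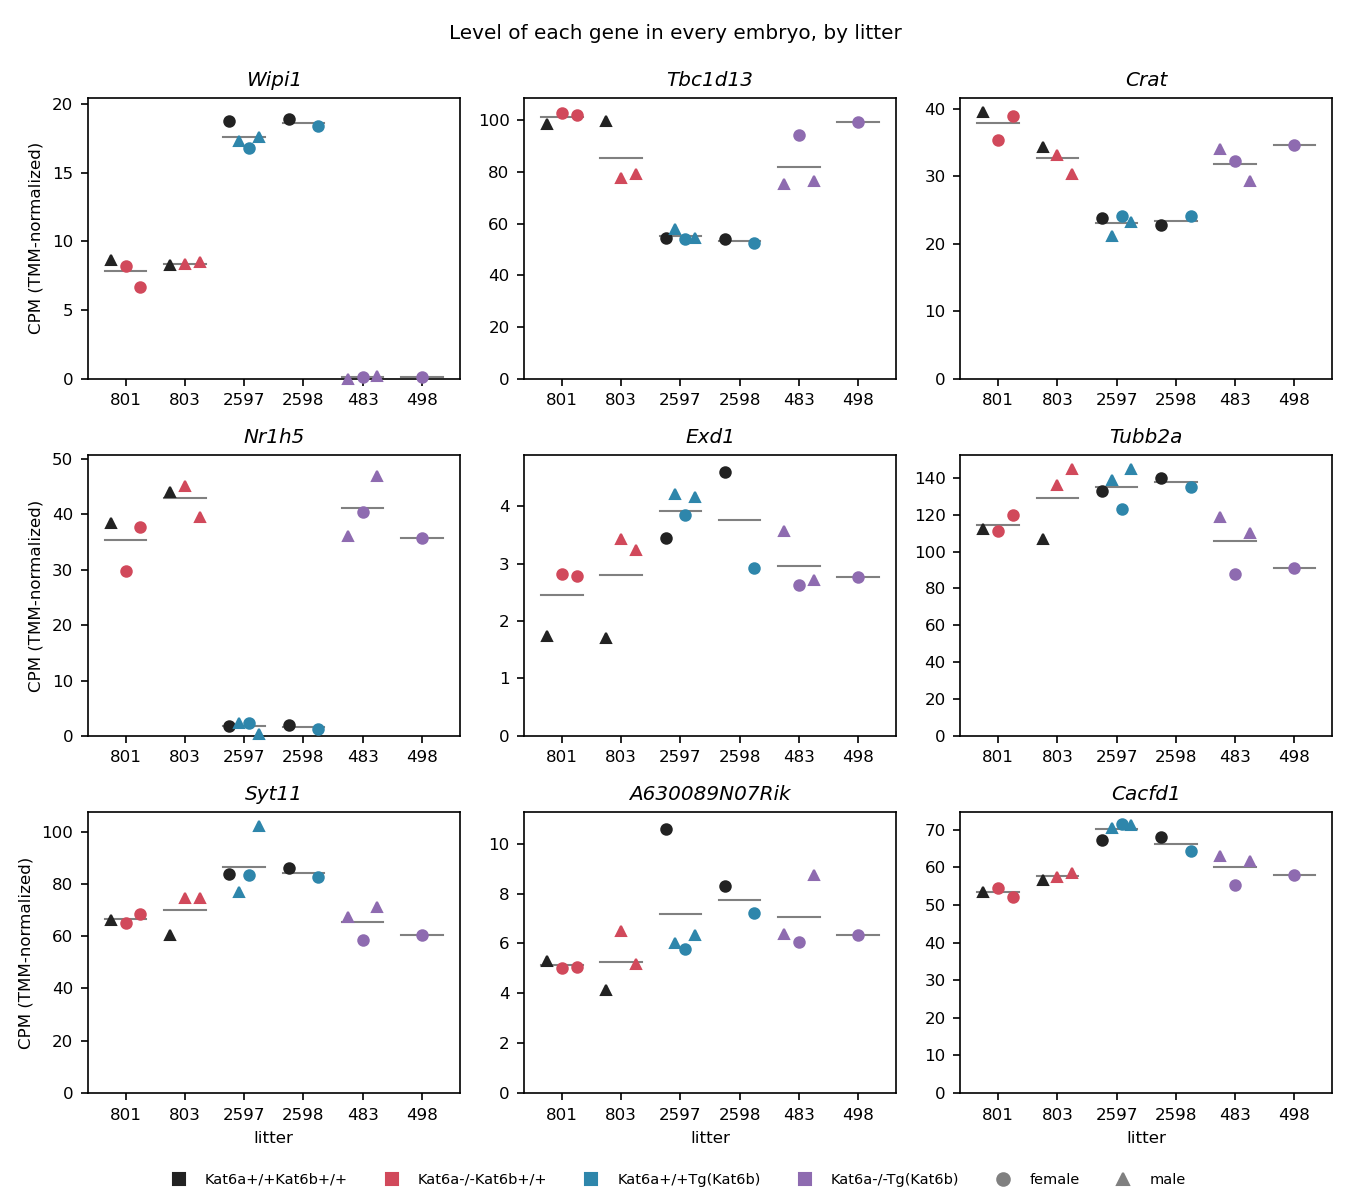
CPM (linear axes from 0) of each of the 9 genes in every embryo, by litter. Points are embryos, coloured by genotype, with circles for females and triangles for males, and grey lines are litter means (litter 498 has 1 embryo). *Wipi1* shows 3 levels (0 to 0.185, 6.70 to 8.62 and 16.8 to 18.9 CPM), *Nr1h5* is low in litters 2597 and 2598 alone, and *Exd1*, *Tubb2a* and *A630089N07Rik* overlap between litters.

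The embryos of 801 and 803 did not overlap those of 2597 and 2598 in 6 of the 9 genes. Over all tested genes 3.56% (558 of 15679) showed such a separation, and since this is the pattern by which the genes were chosen nothing is read from the difference. On the log2 scale the pairs differed by 1.15 for *Wipi1*, −4.65 for *Nr1h5*, −0.76 for *Tbc1d13*, −0.60 for *Crat*, 0.58 for *Exd1*, 0.48 for *A630089N07Rik*, 0.33 for *Syt11*, 0.31 for *Cacfd1* and 0.16 for *Tubb2a* (2597 and 2598 minus 801 and 803). The median absolute difference of all tested genes was 0.0842 and the 99th percentile 0.916, a size that *Wipi1* and *Nr1h5* alone of the 9 exceeded. *Wipi1* was also the only one of the 9 whose litters 483 and 498 separated from both other pairs, and for *Tbc1d13*, *Crat*, *Nr1h5*, *Syt11* and *Cacfd1* they separated from 2597 and 2598 but overlapped 801 and 803. *Tubb2a* separated from 2597 and 2598 in these litters as well, towards lower values.

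**Figure D2:**
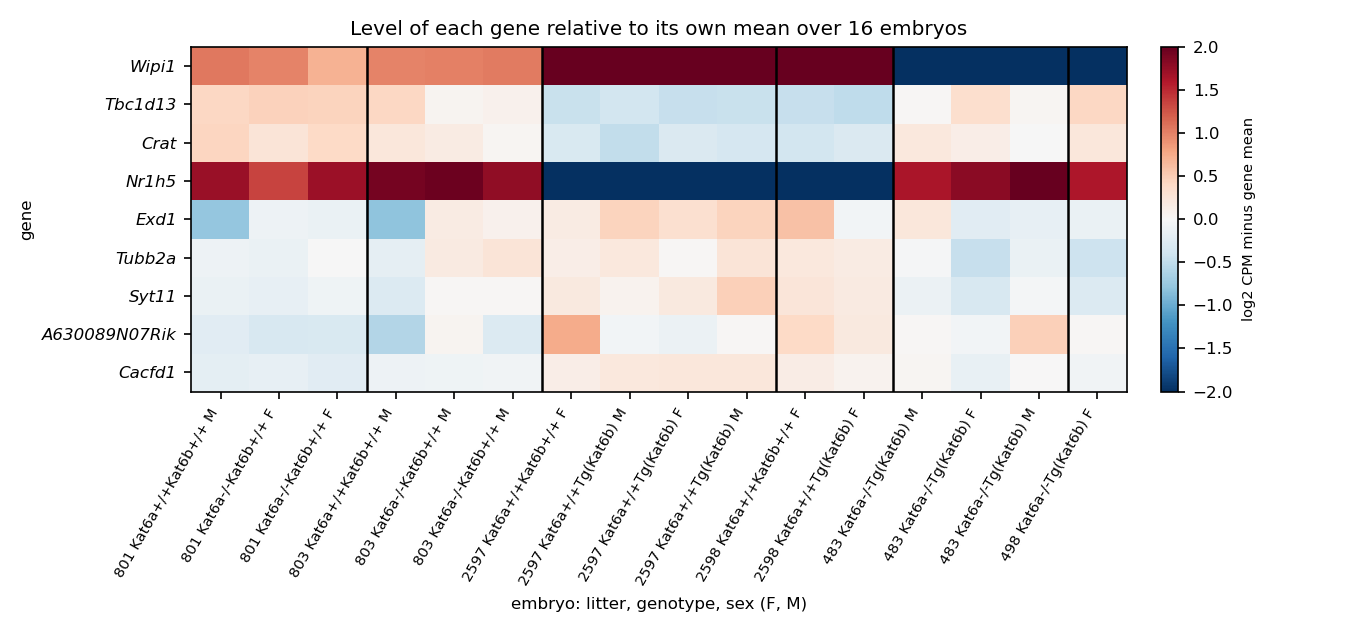
log2 CPM (prior count 2) of the 9 genes in 16 embryos, minus the mean of each gene, ordered by litter with vertical lines between litters. Red is above and blue below the mean, and colours end at −2 and 2. *Nr1h5* is blue in litters 2597 and 2598 and *Wipi1* in 483 and 498, while *Wipi1* is a deeper red in 2597 and 2598 than in 801 and 803, and the colours of *Exd1* and *A630089N07Rik* vary within litters.

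A litter term with 4 degrees of freedom was fitted beside genotype over all 16 embryos, in which the difference between litter pairs rests on the 4 wild-type embryos. It was past the threshold (edgeR FDR under 0.05) for *Tbc1d13* (FDR 0.0159), *Crat* (0.0341) and *Nr1h5* (0.0446), which is 3 of the 9 genes, beside 0.134% (21 genes) of all tested genes. *Wipi1* did not pass, at FDR 0.0778 and rank 24 of 15679, nor did *Cacfd1* (0.609), *Exd1* (0.728), *A630089N07Rik* (0.731), *Syt11* (1) or *Tubb2a* (1). The near absence of *Wipi1* in 483 and 498 does not count towards this term, since it is taken up by the genotype found only there. At an unadjusted p under 0.05, 7 of the 9 and 589 genes in all passed. DESeq2 called 4 of the 9, and its share of all genes was not counted. These counts use the contrast that chose the genes and support nothing further, and the calls depended on single embryos: leaving out any 1 of 12 embryos, wild-type and *Kat6a*-/-*Kat6b*+/+ ones included, left 0 or 1 call.

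Litter and genotype were unevenly crossed, so genotype comparisons without litter in the model can also hold differences between litters. In the fit with 2 surrogate variables over all 16 embryos, none of the 9 genes was called between *Kat6a*-/-*Kat6b*+/+ and wild-type embryos, where 1.88% of all genes were (4 of the 9 and 2387 genes at an unadjusted p under 0.05; DESeq2 called 1, *Wipi1*). None was called between *Kat6a*+/+*Tg(Kat6b)* and wild-type embryos, where 0.14% were (7 of the 9 and 1805 genes unadjusted; DESeq2 called 1, *Nr1h5*). *Wipi1* was called between *Kat6a*-/-*Tg(Kat6b)* and wild-type embryos, where 0.67% were, with a log2 fold change of −6.78 ± 0.369 (SE, FDR 1.68e-07). Since that genotype had no litter in common with wild type, the value is that of the genotype and its litters together. The interaction of the genotypes was called for *Wipi1* alone of the 9 (−6.46 ± 0.436, FDR 6.35e-06), where 0.153% of all genes were. Genotype was part of the rule, so these counts are descriptions.

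The mean of *Nr1h5* was 38.0 ± 6.39 CPM in *Kat6a*-/-*Kat6b*+/+, 21.6 in wild-type and 1.57 ± 0.945 in *Kat6a*+/+*Tg(Kat6b)* embryos, and log2 fold changes against wild type were 1.54 ± 0.459 (SE, FDR 0.140) and −2.97 ± 0.707 (FDR 0.155). With litter in place of the surrogate variables, over the 12 embryos of 801, 803, 2597 and 2598, they were −0.12 ± 0.291 and −0.29 ± 0.591. For *Wipi1* they went from −0.68 ± 0.176 and 0.36 ± 0.165 to −0.11 ± 0.114 and −0.09 ± 0.105. Each estimate with litter lay within 1 SE of 0 for these 2 genes in both comparisons. The genes were chosen for following litter rather than genotype, and the fits also differ in embryos and surrogate variables, so nothing is read from this. With litter, none of the 9 genes was called in either comparison, beside 0.116% and 0.00644% of all genes (2 and 1 of the 9 genes, and 1175 and 575 of all genes, at an unadjusted p under 0.05). Without wild-type replicate 1 (litter 801), *Wipi1* (−0.86), *Tbc1d13* (0.41), *Nr1h5* (2.29) and *Cacfd1* (−0.20) were called between *Kat6a*-/-*Kat6b*+/+ and wild-type embryos in the surrogate variable fit. That left 1 wild-type embryo of 803 beside those of 2597 and 2598. Without *Kat6a*+/+*Tg(Kat6b)* or *Kat6a*-/-*Tg(Kat6b)* replicate 1, *Wipi1* was called (−0.60 and −0.67). The share of all genes called in these fits was not counted, so nothing is read from these calls.

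*Kat6a*+/+*Tg(Kat6b)* and *Kat6a*-/-*Kat6b*+/+ embryos shared no litter, and between them 6 of the 9 genes were called, where 12.7% of all genes were. This comparison runs along the litter pairs whose difference chose the genes, and it was added after the data were seen. Its calls are therefore descriptions, and nothing is read from them. The calls were *Nr1h5* (log2 fold change −4.51 ± 0.611, FDR 0.00139), *Wipi1* (1.04 ± 0.171, FDR 0.00153), *Cacfd1* (0.29 ± 0.0572, FDR 0.00211), *Tbc1d13* (−0.61 ± 0.119, FDR 0.00747), *Syt11* (0.22 ± 0.0513, FDR 0.00794) and *Crat* (−0.53 ± 0.136, FDR 0.0248). With litter in place of the surrogate variables, where the wild-type litter mates carry the comparison, none was called, beside 0.0515% of all genes (2 of the 9 and 1051 genes at an unadjusted p under 0.05). Requiring 10 counts in every embryo left *Wipi1* and *Nr1h5* untested, and the surrogate variables were estimated anew on the genes kept. In that fit the others were at −0.154 (*Tbc1d13*), −0.035 (*Crat*), 0.04 (*Syt11*) and 0.083 (*Cacfd1*), with none called. Each of these genes held at least 332 counts in every embryo. Without surrogate variables they were at −0.723, −0.576, 0.284 and 0.321, in the same order. What moved the estimates was not tested. *Syt11* also lost its call without surrogate variables (FDR 0.134), with sex in their place (0.152) and without *Kat6a*-/-*Kat6b*+/+ replicate 1 (0.0766) or 3 (0.0845), and *Tbc1d13* with sex in their place (0.0540). *Crat* lost it without a filter on low counts (FDR 0.0502) and without *Kat6a*-/-*Kat6b*+/+ replicate 1, 2 or 3 or *Kat6a*+/+*Tg(Kat6b)* replicate 1 or 3 (FDR up to 0.117). With litter the estimates were −0.17 ± 0.656 for *Nr1h5*, 0.01 ± 0.155 for *Wipi1* and 0.00 ± 0.0797 for *Cacfd1*, and those of *Tbc1d13* (0.14 ± 0.107), *Crat* (0.09 ± 0.119) and *Syt11* (−0.14 ± 0.15) had turned sign. With litter, the 2 genes that passed unadjusted were *Exd1* (−0.91 ± 0.308, FDR 0.607) and *A630089N07Rik* (−0.76 ± 0.244, FDR 0.579). Wild-type embryos lay below their litter mates in 801 and 803 for *Exd1*, and above them in 2597 and 2598 for *A630089N07Rik*. In the other litter pair the direction was mixed for each gene.

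**Figure D3:**
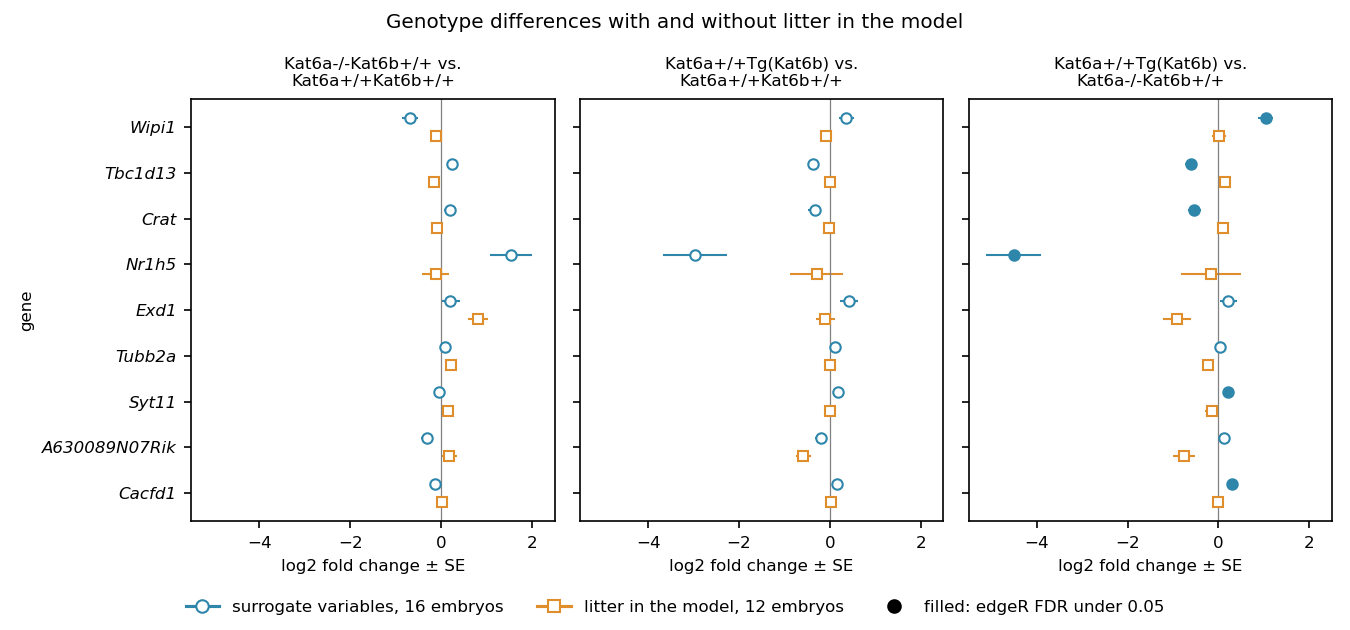
log2 fold changes (horizontal axes, bars ± SE) of the 9 genes in 3 genotype comparisons. Circles are from the fit with surrogate variables over 16 embryos. Squares are from the fit with litter in their place over the 12 embryos of litters that hold wild-type mates. Filled symbols have an edgeR FDR under 0.05. *Nr1h5* is at −4.51 and −0.17 in the right panel without and with litter, and no square is filled.

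Sex was not named in the rule that chose the genes, and was tested with genotype and litter in the model. It is partly tied to litter, however, since the *Kat6a*-/-*Kat6b*+/+ embryos were female in litter 801 and male in 803. The choice by litter is therefore not independent of sex. *Tubb2a* was 0.30 ± 0.0501 lower in females on the log2 scale (−0.30, SE, FDR 0.0273), the only one of the 9 that was called, beside 0.0893% (14 genes) of all tested genes (3 of the 9 and 1049 genes at an unadjusted p under 0.05). The 8 other genes had FDRs of 0.632 to 0.994, with differences of −0.06 ± 0.155 for *Wipi1*, 0.04 ± 0.279 for *Nr1h5*, 0.07 ± 0.0701 for *Crat* and −0.08 ± 0.0484 for *Cacfd1*. Those of *Exd1* (−0.30 ± 0.166), *Syt11* (−0.19 ± 0.0735), *A630089N07Rik* (−0.17 ± 0.156) and *Tbc1d13* (0.17 ± 0.0651) were larger, and did not pass the test. Mean *Tubb2a* was 117 CPM in females and 127 in males over all embryos. Among the *Kat6a*+/+*Tg(Kat6b)* embryos of litter 2597 the female was at 123 CPM and the males at 139 and 145, and among the *Kat6a*-/-*Tg(Kat6b)* embryos of 483 the female was at 87.7 and the males at 119 and 110. Within both sets the female was lower than both males. In litter 801 both *Kat6a*-/-*Kat6b*+/+ embryos were female and the wild-type embryo male, so the difference there also depends on how genotype is modelled.

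Of the 14 genes called by sex, 11 are on the sex chromosomes and the other 3 were *Tubb2a*, *Tubb3* (−0.48 ± 0.0691, FDR 0.00967), the beta-tubulin of neurons, and *Lhx3* (−1.47 ± 0.226, FDR 0.00998), a homeobox gene of motor neurons and interneurons, the last named after its value was seen. The summed level of 10 early-neuron markers went with *Tubb2a* in some sets of embryos and not in others. It was 373 CPM in both males of litter 483 and 232 and 231 in the females of 483 and 498, 327 and 443 in the males and 336 in the female *Kat6a*+/+*Tg(Kat6b)* embryos of 2597, 299 in the wild-type and 468 and 439 in the *Kat6a*-/-*Kat6b*+/+ embryos of 803, and 414 in the wild-type and 363 and 384 in the *Kat6a*-/-*Kat6b*+/+ embryos of 801. The lower sums and the lower *Tubb2a* fell in the same embryos in 483, 498 and 803, but not in 801 or between the female and the first male of 2597. All embryos of 803 were male, so that litter holds no comparison of the sexes. Over litter pairs the sum ranged from 299 to 468 CPM (801 and 803), 327 to 454 (2597 and 2598) and 231 to 373 (483 and 498), with no marker at 0. Of these 10 markers *Tubb3* alone passed the sex test. The part of the early-neuron markers in the *Tubb2a* difference was not tested. Leaving out 1 embryo at a time lost the call for 14 of the 16 (FDR up to 0.737, without *Kat6a*-/-*Tg(Kat6b)* replicate 2), with a log2 difference between −0.33 and −0.24, and with genotype alone in the model (−0.12, FDR 0.998). Without *Kat6a*+/+*Tg(Kat6b)* replicate 1, *Syt11* was called as well (−0.28, FDR 0.00092).

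**Figure D4:**
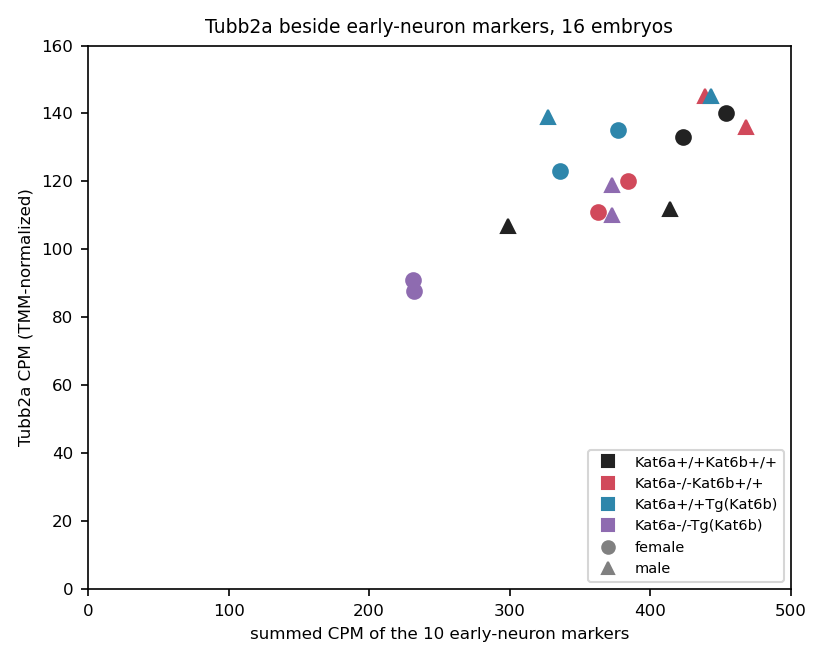
*Tubb2a* CPM (vertical axis) against the summed CPM of 10 early-neuron markers (horizontal axis), both linear from 0, in 16 embryos coloured by genotype, with circles for females and triangles for males. The females of litters 483 and 498 are lowest on both axes, at 87.7 and 91.0 CPM of *Tubb2a* and 232 and 231 CPM of the markers.

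None of the tested relatives of the 9 genes was called by litter, although some differed between the litter pairs by as much as a gene of the 9 itself. *Wipi2*, *Wdr45b* and *Wdr45*, which encode the other proteins of the WIPI family, were at 125, 87.1 and 10.7 CPM in litters 801 and 803, 124, 88.7 and 11.7 in 2597 and 2598, and 128, 92.5 and 11.5 in 483 and 498. Per length, *Wipi1* was at 4.46, 9.90 and 0.0589 RPKM (CPM per kilobase of gene length) in the 3 pairs against 31.8, 31.6 and 32.4 RPKM for *Wipi2*, so that *Wipi2* was the higher of both in every pair. Among 26 genes of autophagosome formation other than *Wipi1*, these relatives included and all tested, none was called by litter or by sex, and their log2 differences between 2597 and 2598 and 801 and 803 lay between −0.12 and 0.13. *Crot*, the carnitine octanoyltransferase, was at 39.2, 42.3 and 40.0 CPM in the pairs, and none of 7 carnitine acyltransferases and carriers other than *Crat* was called, with *Cpt1a* at a log2 difference of 0.65 (FDR 1), as large as that of *Crat*.

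*Nr1h4*, the bile acid receptor FXR, had too few counts to be tested (at most 0.295 CPM in any embryo). Of the liver X receptors, *Nr1h2* differed by 0.07 and *Nr1h3* by −0.01 on the log2 scale between the litter pairs, and neither was called. *Tbc1d10b*, another Rab35 regulator, was at 63.3, 63.7 and 63.5 CPM, and none of 5 genes of Rab35 and its regulators other than *Tbc1d13* was called. *Exd2* was at 36.1, 36.0 and 35.4 CPM. None of the 4 tested genes of the EXD and piRNA list, the 13 tested synaptotagmins or the 7 other beta-tubulins was called by litter, and by sex *Tubb3* alone was. The largest log2 differences between the pairs were −0.58 for *Piwil2*, 0.38 for *Syt16* and 0.33 for *Tubb6* (FDR 1 each), as large as those of *Exd1*, *Syt11* and *Tubb2a* or larger. *Tubb2b* (316, 312 and 284 CPM) differed by sex by −0.20 (FDR 0.368), and *Syt4* by 0.05 (FDR 0.995). The lists were drawn up with earlier results of these embryos known.

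Most tested genes near the 9 differed little between the litter pairs. Within 1 Mb of a start there were 251 other tested genes, with a median absolute difference between litter pairs of 0.0680, of which none was called by litter and 7 (2.79%) did not overlap between the pairs, beside 3.56% of all genes. *Prkar1a*, 39.2 kb from *Wipi1*, was at 347 and 348 CPM, *Zer1*, 8.6 kb from *Tbc1d13*, at 47.3 and 49.8, *Ptpa*, whose start is 0.5 kb from that of *Crat*, at 218 and 203, and *Sike1*, 31.6 kb from *Nr1h5*, at 55.3 and 52.5. *Chp1*, which overlaps *Exd1*, was at 87.0 and 88.1 CPM, and *Bphl*, which overlaps *Tubb2a*, at 11.3 and 11.4. Beside *Syt11*, *5830417I10Rik*, whose start is 2.6 kb away, was at 39.5 CPM in 801 and 803, 80.1 in 2597 and 2598 and 82.8 in 483 and 498, but with overlap between embryos (FDR 1). Also near *Syt11*, *1500004A13Rik* differed by 2.73 on the log2 scale without overlap (FDR 1), and was named after its value was seen.

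**Figure D5:**
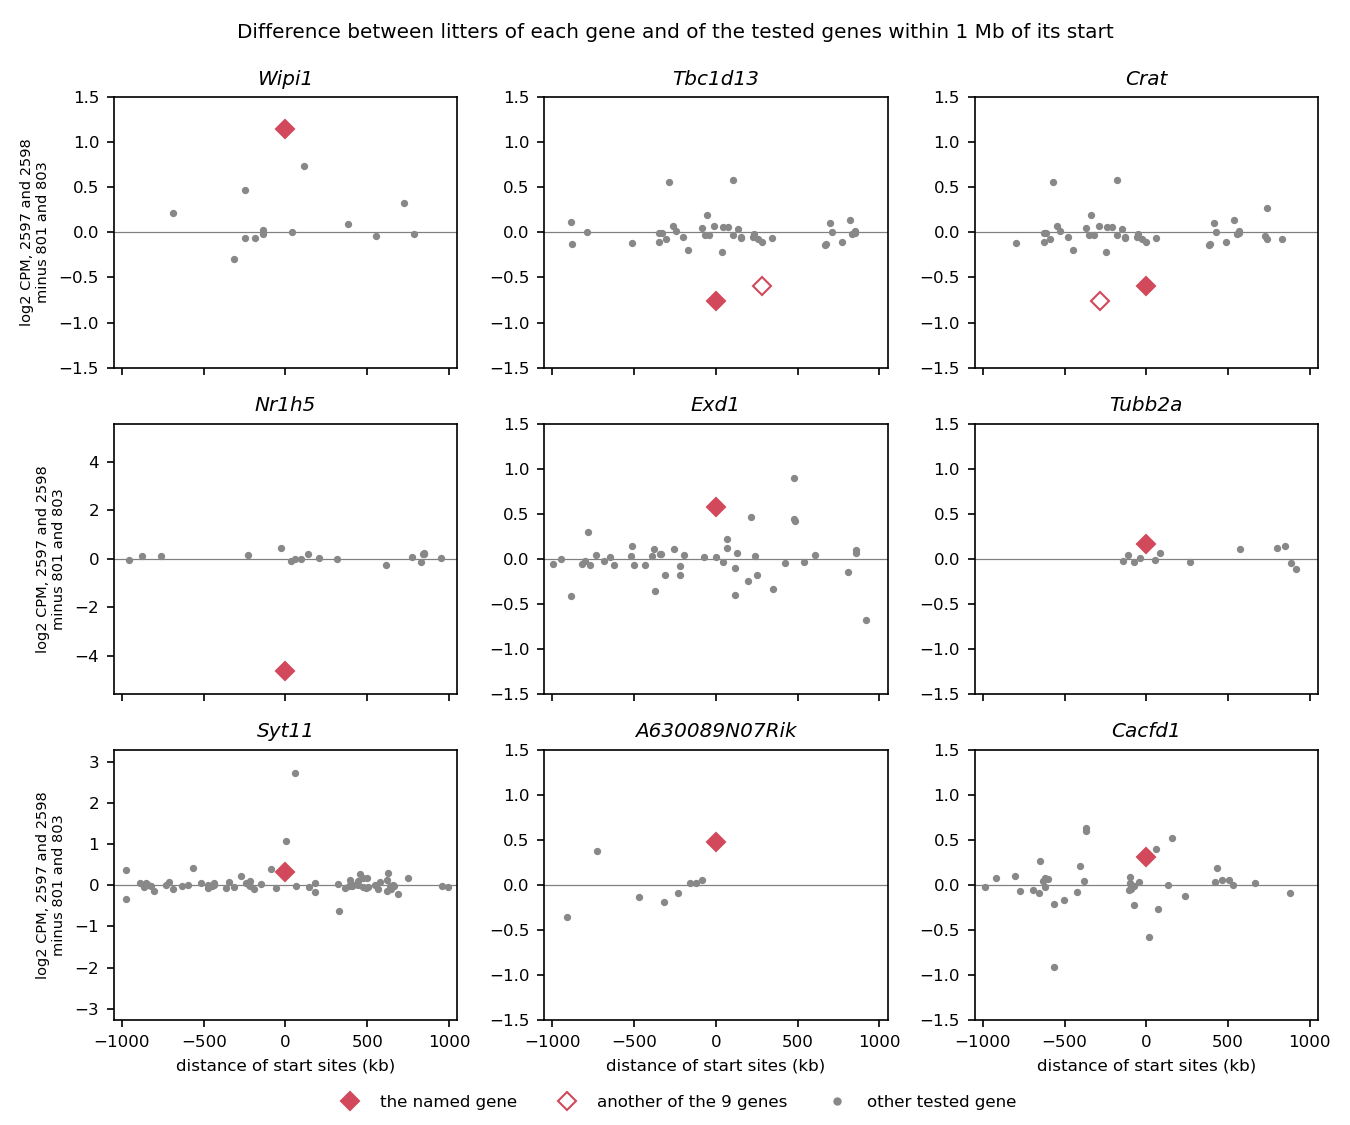
log2 difference of litters 2597 and 2598 minus 801 and 803 (vertical axes, scaled per panel) for each of the 9 genes (filled diamond at 0) and for other tested genes against the distance of their starts in kb (horizontal axes). Open diamonds are others of the 9 genes. *Tbc1d13* and *Crat*, 282.3 kb apart, are the only pair of the 9 within 1 Mb, and the median absolute difference of the grey points is 0.0680.

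The genes whose log2 levels were most like those of each of the 9 over the 16 embryos were named by Pearson correlation, 3 for each. For *Tbc1d13* they included *Crat* (0.937) and *A230056P14Rik* (0.927), and for *Crat* they were *Tbc1d13*, *Fip1l1* (0.935) and *Elovl6* (0.919). For *Nr1h5* they were *Krt15* (0.956), *Svopl* (0.931) and *A230056P14Rik* (0.928), and for *Wipi1* the mitochondrial *COX3* (0.932), *Krt10* (0.915) and *Abca5* (0.898). *Abca5*, a lipid transporter gene 0.726 Mb from *Wipi1*, was at 10.9 ± 1.21 CPM in 801 and 803, 13.7 ± 1.01 in 2597 and 2598 and 7.58 ± 0.536 in 483 and 498 (n = 6, 6 and 4), the same order as *Wipi1* over a far narrower range. For *Exd1* all 3 were on its own chromosome, *Gm14057* (0.910), *B2m* (0.891) and *Dph6* (0.888), at 11.3, 2.60 and 4.89 Mb.

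The most alike genes were *Sema6c* (0.940), *C130071C03Rik* (0.929) and *Rgmb* (0.920) for *Syt11*, *Atp10a* (0.926), *Osbp* (0.921) and *Csnk1e* (0.920) for *Cacfd1*, and *Gm16551* (0.916), *Tagln3* (0.895) and *Cpped1* (0.891) for *Tubb2a*. *A630089N07Rik* had the lowest values, with *Zbtb4* (0.861), *Fbxo24* (0.792) and *Mtfr2* (0.791). Of the 25 pairs with a known position 8 were on 1 chromosome, where *Tbc1d13* with *Crat* is counted from both sides and 3 belong to *Exd1*. The share among all pairs of genes was not counted, so nothing is read from this. Of the 27 pairs, 8 were also among the 3 most alike by Spearman correlation. *COX3*, for example, had a Spearman correlation of 0.562 with *Wipi1* against 0.938 for *Krt10*. Embryos of 1 litter share parents.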

How the data were processed

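Total RNA of 16 whole E9.5 embryos was made into libraries with a TruSeq v2 kit and, per the paper's methods, aligned to mm39 with Rsubread. The submitters' processing notes also name bcl2fastq and featureCounts. For each embryo the authors deposited counts, whole numbers of reads on 26411 genes without normalization (14407277 to 45665680 per embryo). The strand setting, the annotation release and the handling of reads shared between genes are not given in the sources used here.

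Genotype, litter and sex were taken from the labels. The 9 genes, the gene lists and the tests were chosen with earlier results of these data known. From the counts, edgeR 4.0.16 in R 4.3.3 kept 15679 genes (filterByExpr, minimum count 10, minimum total 15) and scaled libraries by TMM. CPM and RPKM were computed from these sizes and the deposited gene lengths, and log2 CPM with a prior count of 2. Genotypes were compared by robust quasi-likelihood tests over all 16 embryos with 2 surrogate variables (sva 3.50.0, genotype protected, at most 4 allowed, 20 permutations). The study states TMM scaling and surrogate variables within edgeR and limma, and the form of the test and these settings were chosen here. Litter (beside genotype) and sex (beside genotype and litter) were tested likewise, but without surrogate variables. Genotype was also fitted with litter in place of surrogate variables over the 12 embryos of litters 801, 803, 2597 and 2598. The comparison of *Kat6a*+/+*Tg(Kat6b)* with *Kat6a*-/-*Kat6b*+/+ embryos was added after the data were seen. edgeR FDR is the Benjamini-Hochberg adjusted p over all tested genes, with a threshold of 0.05. Alternatives used DESeq2 1.42.0, limma 3.58.1, other filters, scaling and covariates, and each embryo left out. Ratio intervals for low counts are exact 95% Poisson intervals and cover counting error only.

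The text names the 9 genes, the 3 most alike for each, nearest tested genes, listed relatives and list genes called by litter or sex, and others only where stated. One of the most alike genes is not reported here. Positions are from GENCODE M39 (GRCm39), where 25282 symbols matched 1 gene. No 2 libraries of the same genotype agreed within sampling noise (chi-square per degree of freedom 1.81 to 14.9), and libraries of different genotypes were not compared. The lowest value, 1.81, was that of *Kat6a*-/-*Tg(Kat6b)* replicates 2 and 4, females of litters 483 and 498.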

Additional observations from a re-analysis of the deposited data

Results flagged for a closer look

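A few embryos lay far from the other 3 of their genotype, by a gap ratio that chance alone exceeds in about 1 in 20 groups of 4, so that some are to be met among 36 groups. *Wipi1* was at 6.70 CPM in *Kat6a*-/-*Kat6b*+/+ replicate 2 of litter 801, below its genotype. *Exd1* was at 3.56 CPM in *Kat6a*-/-*Tg(Kat6b)* replicate 1, above. *A630089N07Rik* was at 6.50 CPM in *Kat6a*-/-*Kat6b*+/+ replicate 3 and at 8.75 in *Kat6a*-/-*Tg(Kat6b)* replicate 3, both above. *Cacfd1* was at 64.4 CPM in *Kat6a*+/+*Tg(Kat6b)* replicate 4, the only embryo of its genotype in litter 2598 and below the 3 of litter 2597.

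For *Wipi1* the interaction term of transgene and *Kat6a* genotype was called, at a log2 value of −6.46 (edgeR FDR 6.35e-06), as 1 of 24 genes (0.153% of those tested). Every *Kat6a*-/-*Tg(Kat6b)* embryo came from litter 483 or 498, and genotype and litter cannot be told apart here.

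In several genes the difference from the wild-type litter mate had opposite signs in the litters of 1 genotype. Each of these litters holds 1 wild-type embryo, and these contrasts were not tested. For *Kat6a*-/-*Kat6b*+/+ minus wild type, the log2 difference in litters 801 and 803 was −0.21 and 0.02 for *Wipi1*, 0.05 and −0.34 for *Tbc1d13*, and −0.07 and 0.48 for *A630089N07Rik*. For *Kat6a*+/+*Tg(Kat6b)* minus wild type, it was 0.24 in litter 2597 and −0.65 in 2598 for *Exd1*, and 0.08 and −0.08 for *Cacfd1*.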

How the results depend on the processing

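The log2 differences of the 9 genes between litters 2597 and 2598 and litters 801 and 803 kept their sign and moved by less than 1 SD under other scaling, no filter and each embryo left out (*Wipi1* 1.09 to 1.17, *Nr1h5* −4.78 to −4.30, *Tubb2a* 0.13 to 0.22). The *Wipi1* call in *Kat6a*-/-*Tg(Kat6b)* embryos stood in all 23 alternatives that tested the gene. Requiring 10 counts in every embryo left *Wipi1* and *Nr1h5* untested there (0 calls). With surrogate variables estimated anew on the genes kept, it gave 0 calls between *Kat6a*+/+*Tg(Kat6b)* and *Kat6a*-/-*Kat6b*+/+. In that comparison litter in place of surrogate variables also gave 0 and turned *Tbc1d13* (0.145), *Crat* (0.09) and *Syt11* (−0.14). DESeq2 gave 1 call in each comparison that otherwise had 0. Leaving out 1 embryo gave 0 to 4 calls for *Kat6a*-/-*Kat6b*+/+ vs. wild type, 0 for *Kat6a*+/+*Tg(Kat6b)* vs. wild type, 1 for *Kat6a*-/-*Tg(Kat6b)* vs. wild type, 4 to 6 for *Kat6a*+/+*Tg(Kat6b)* vs. *Kat6a*-/-*Kat6b*+/+, 0 to 4 by litter and 0 to 2 by sex. The litter count was 0 at a threshold of 0.01, 1 with limma-voom and 4 with DESeq2, and the sex count 0 at 0.01 and 0 with genotype alone. Except for the fits with litter in place of surrogate variables, the share of all genes called in an alternative was not counted. Uncalled differences, taken gene by gene over all alternatives, turned sign in 14 of 182 values by sex, 16 of 191 for *Kat6a*-/-*Tg(Kat6b)*, 11 of 223 for *Kat6a*-/-*Kat6b*+/+, 4 of 223 for *Kat6a*+/+*Tg(Kat6b)* vs. wild type, and 11 of 75 for *Kat6a*+/+*Tg(Kat6b)* vs. *Kat6a*-/-*Kat6b*+/+. Unless stated, the cause was not tested.

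Replicate numbers do not pair the embryos: same-numbered embryos had correlations of −0.30 to 0.26 (median 0.06), and 3 of 16 embryos correlated best with an embryo of their own number. With the replicate number as a block, the calls by litter and by sex were 0 each, and those of the genotype comparisons did not change. Within a genotype the replicate number runs closely with litter, so this block takes up part of what is tested. The sex difference of *Tubb2a* stayed at −0.31 (edgeR FDR 0.993) there, and nothing is read from the lost calls. Litters held 1 to 4 embryos, and each of 4 litters held 1 wild-type embryo, which limits the precision of every litter value.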
